A study of Homo sapiens with 9 samples.

Results

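The 3 control libraries of a 9-library RNA sequencing series are described here, each made from MDA-MB-468 cells that carried the lentiviral hairpin vector pSicoR without an insert. They were chosen by their plasmid label (pSicoR_empty), and the 6 libraries of cells with a hairpin against LMO2 were not used. MDA-MB-468 is an established human breast adenocarcinoma line, so all values come from 1 line, in cells that carried the vector. The label calls it a transfected plasmid. Each library started from 200000 cells, and polyadenylated RNA was selected before library preparation. The labels do not say whether the 3 libraries came from separate cultures, so the spread between them may be technical. How long after the vector was introduced the cells were taken, and whether cells with it were selected, is not given in the sources used here. Cells without the vector were not analysed here.

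Breast epithelium holds an inner luminal layer, marked by keratins such as KRT8 and KRT18 and, in part of its cells, by hormone receptors, and an outer basal layer, marked by KRT5, KRT14 and TP63. Basal-like tumours lack oestrogen and progesterone receptors and ERBB2 amplification and show keratins of the basal layer. MDA-MB-468 is a common model of such tumours and is known for EGFR amplification and for lacking the RB1 and SMAD4 proteins. RB1 and SMAD4 are tumour suppressors that act in the cell cycle and in transforming growth factor beta signalling.

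The deposited table gives estimated counts for 56809 genes, and the libraries held 16628712, 19385187 and 18649176 counts for control replicates 1 to 3. Levels are counts scaled to a library total of 1000000 (CPM), and values per library always follow that order. A gene was called expressed at 1 CPM or more in each of the 3 libraries and silent under 0.2 CPM in each, and the others were called low. A count of 0 allows up to 3 counts, which is 0.180, 0.155 and 0.161 CPM, and this floor covers counting error only because PCR copies are not independent molecules. Family shares and ranks of protein-coding genes are per kilobase of transcript, scaled to 1000000, with the median transcript length of GENCODE release 29. CPM limits and summed CPM take no account of length. By these limits 12836 genes (22.6%) were expressed and 39141 (68.9%) silent. Among 19870 protein-coding genes, 11938 (60.1%) were expressed and 5781 (29.1%) silent, and the shares given for the gene lists below are read against these. The lists were written with earlier results of these data known, and no list or gene was tested.

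MDA-MB-468 cells carried epithelial junction genes, keratins of both layers of the breast, and few transcription factors of the mesenchymal programme. All 35 of 35 genes of the epithelial junction list were expressed, against 60.1% of all protein-coding genes. CDH1, the adhesion protein E-cadherin, lay at 338, 315 and 316 CPM. EPCAM, an epithelial adhesion molecule, lay at 439.7, 439.5 and 442 CPM, and its highest library was 1.01-fold above its lowest. The tight junction claudin gene CLDN7 lay at 252, 305 and 283 CPM. Each of these genes was at a like level in the 3 libraries. Regulators known to maintain epithelial state were present as well: the splicing factor ESRP1 stood at 152, 151 and 155 CPM and the transcription factor GRHL2 at 75.2, 64.4 and 73.3 CPM.

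Of 34 basal markers, 28 were expressed (82.4%, against 60.1% of all protein-coding genes), 3 were low and 3 silent. KRT5, the type II keratin of the basal layer, lay at 3328, 3176 and 3291 CPM, and its range over the libraries was 1.05-fold. Its type I partner in that layer, KRT14, lay at 22.3, 25.3 and 22.1 CPM, while KRT17, another type I keratin of basal cells, lay at 986, 745 and 758 CPM. Per kilobase, KRT17 took 21.2% ± 4.54 (SD, n = 3) of the summed type I keratin level and KRT14 0.379% ± 0.0197. KRT14 therefore made up under 1% of the type I keratin RNA with each of the 3 gene lengths tried, since the longest transcript gave 0.594% and the union of exons 0.753%. The master regulator of the basal layer, TP63, was near the limit at 1.98, 1.24 and 1.45 CPM. Other regulators linked to basal-like tumours were expressed well above the limit. FOXC1 lay at 46.2, 52.1 and 56.7 CPM, SOX9 at 200.0, 187 and 209 CPM and the coactivator gene VGLL1 at 93.9, 99.3 and 94.4 CPM. SOX10, which marks neural crest and some basal-like tumours, had a single count in 1 library. The hemidesmosome genes split: the integrin ITGB4 lay at 110.4, 106 and 115 CPM, whereas COL17A1, its collagen partner, was low at 0.0601, 0.155 and 0.322 CPM.

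Luminal keratins were abundant beside the basal ones. KRT8 lay at 1768, 2013 and 1939.9 CPM and its partner KRT18 at 1019.9, 1239 and 1164 CPM. KRT19, a keratin of luminal cells, lay at 1001, 1362 and 1321 CPM and KRT7 at 1220.2, 1369 and 1293 CPM. All 4 were lowest in replicate 1. Type I keratins divided per kilobase mainly among KRT19 (45.6% ± 5.40), KRT17 and KRT18 (19.8% ± 1.00). KRT5 was first among the type II keratins with each length, yet its share moved from 67.5% ± 1.44 with the median length to 41.8% with the longest transcript and 46.9% with the union of exons, its median transcript being 599 bases long and its longest 2531. In all, 22 of 55 keratin genes were expressed (40%, against 60.1% of all protein-coding genes) and 10 of them exceeded 100 CPM in every library. Some keratins were uneven: KRT6A lay at 26.2, 8.97 and 10.6 CPM, KRT6B at 228, 94.5 and 99.9 CPM and KRT75 at 43.2, 19.8 and 18.5 CPM. All 3 were highest in replicate 1, and 58.3% of the 31-base words of KRT6B also occur in transcripts of another gene, so its count is uncertain. KRT16, the type I partner of KRT6A and like it a keratin of stressed epithelium, was even at 132, 118 and 121 CPM.

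The luminal list as a whole was mixed, with 23 of 38 genes expressed and 11 silent. Its expressed share of 60.5% was close to the 60.1% of all protein-coding genes. GATA3, the luminal transcription factor, lay at 44.1, 35.2 and 36.7 CPM, FOXA1, its pioneer partner, at 22.6, 27.4 and 23.5 CPM, and SPDEF at 49.7, 55.04 and 54.3 CPM. These 3 factors were expressed in every library. The oestrogen-responsive genes TFF1 and TFF3 had no count in any library, and neither did PGR or TBX3. Others known to respond to oestrogen were expressed: GREB1 lay at 5.71, 5.06 and 4.72 CPM, AREG at 2.95, 1.96 and 1.72 CPM and XBP1 at 226, 229 and 205 CPM. ALDH1A3, a retinaldehyde dehydrogenase of luminal progenitors, lay at 472, 316 and 312 CPM, highest in replicate 1. ELF5, a factor of alveolar progenitors, was low at 0.962, 0.0516 and 0.322 CPM.

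**Figure D1:**
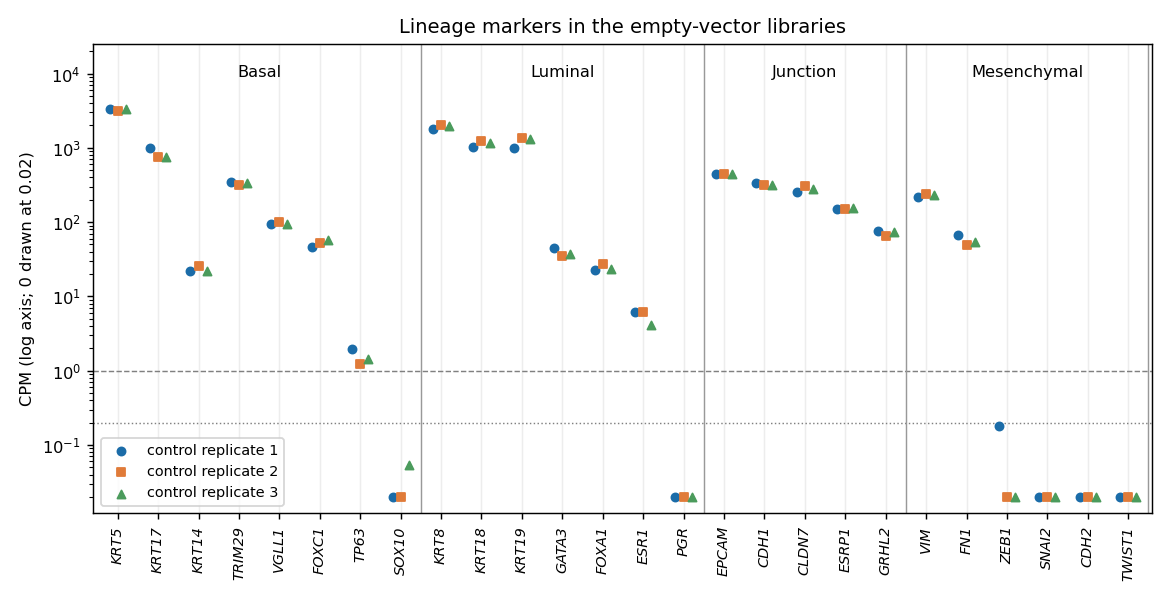
CPM (log axis) of 26 lineage genes in the 3 control libraries, 1 point per library; zeros are drawn at 0.02, the dashed line is the 1 CPM limit and the dotted line the 0.2 CPM limit. Keratins and junction genes lie above 1 CPM in all 3 libraries, with KRT14 the lowest of the keratins drawn. SOX10, PGR, ZEB1, SNAI2, CDH2 and TWIST1 lie under 0.2 CPM.

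Of 35 mesenchymal genes, 11 were expressed (31.4%, against 60.1% of all protein-coding genes) and 15 silent. Of the transcription factors that drive mesenchymal transition, SNAI2, TWIST1, PRRX1 and FOXC2 had no count, and ZEB1 had counts in replicate 1 only (0.180, 0 and 0 CPM). N-cadherin, CDH2, had no count either. TWIST2 lay at 9.02, 9.75 and 9.81 CPM and SNAI1 at 2.83, 1.55 and 1.82 CPM, so the factor genes were not uniformly off. The expressed members also included structural genes. VIM, the intermediate filament vimentin, lay at 219, 237 and 229.8 CPM, S100A4 at 193, 225 and 218 CPM and the fibronectin gene FN1 at 67.95, 49.6 and 54.5 CPM. VIM and S100A4 differed between libraries by 1.09-fold and 1.17-fold. The fibrillar collagen genes COL1A2 and COL3A1 had no count, although COL1A1 lay at 14.3, 9.54 and 10.5 CPM.

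Markers of other cell types were sparse, and their expressed counts below stand against 60.1% of all protein-coding genes. Immune genes summed to 14.5, 12.7 and 10.8 CPM over 22 genes, of which 2 were expressed. These were ITGAM (5.11, 6.09 and 4.61 CPM) and CSF1R (5.83, 3.92 and 4.02 CPM), and PTPRC, the pan-leukocyte phosphatase CD45, lay at 0.180, 0.103 and 0.107 CPM. Endothelial genes summed to 23.7, 23.7 and 23.4 CPM, with 3 of 14 expressed (KDR, ESAM and SOX18), while PECAM1 was low and EMCN, PLVAP and SOX17 were at 0. Fibroblast and pericyte genes summed to 22.5, 16.0 and 19.1 CPM, with 4 of 13 expressed (COL1A1, PDGFRA, FAP and RGS5). None of 11 adipocyte and erythroid genes was expressed, and 2 of 30 liver, neuron and muscle genes were (SYP and MAP2). The highest mean of any member was 5.27 CPM in the immune list, 8.11 in the endothelial and 11.5 in the fibroblast and pericyte list. It was 1.05 CPM for adipocyte and erythroid genes and 20.5 CPM for liver, neuron and muscle genes. By contrast, the summed CPM of the epithelial junction genes was 6379, 6015 and 6251.

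ESR1 passed the 1 CPM limit while ESR2 and PGR did not, and EGFR dominated the ERBB receptors. ESR1, the oestrogen receptor alpha gene, was expressed at a low level, 6.19, 6.14 and 4.13 CPM, resting on 103, 119 and 77 counts. In bulk RNA a few cells with much of a transcript and many cells with little cannot be told apart. ESR2 lay at 0.1203, 0.206 and 0.0536 CPM. The progesterone receptor gene PGR had no count in any library. ERBB2, the gene of HER2, lay at 58.6, 49.3 and 55.4 CPM and ERBB3, its partner, at 48.7, 53.3 and 52.9 CPM. ERBB4 had no count. EGFR, the epidermal growth factor receptor gene, lay at 6494, 4815 and 5446 CPM. Per kilobase, EGFR made up 96.1% ± 0.608 of the summed ERBB family level, and 96.5% or 97.6% with the other lengths. Among all protein-coding genes its level per kilobase ranked 38, 79 and 43 by the median, longest and union length. EGFR was highest in replicate 1 and lowest in replicate 2.

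Across 58 receptor tyrosine kinases, 36 were expressed (62.1%, against 60.1% of all protein-coding genes) and 14 silent. Beside EGFR, the collagen receptor gene DDR1 lay at 841, 805 and 819 CPM. MET, the hepatocyte growth factor receptor, lay at 145, 116 and 118 CPM, EPHB4 at 180.1, 184 and 199 CPM and the pseudokinase ROR1 at 78.7, 65.7 and 79.4 CPM. Each of these 4 differed by less than 1.5-fold between libraries. All 4 fibroblast growth factor receptor genes were expressed, FGFR1 at 30.8, 32.9 and 37.00 CPM and FGFR3 at 6.49, 6.86 and 8.10 CPM among them. IGF1R lay at 33.9, 21.98 and 29.97 CPM and INSR at 49.8, 30.4 and 33.4 CPM. KIT, a receptor of luminal progenitors, lay at 13.6, 13.8 and 14.05 CPM. AXL, often raised in mesenchymal breast lines, lay at 4.03, 2.48 and 2.79 CPM. ALK, NTRK3, FLT4 and ROR2 were silent.

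Of 48 nuclear receptors, 28 were expressed (58.3%, against 60.1% of all protein-coding genes) and 15 silent. NR2F6, an orphan receptor, lay at 198, 248 and 243 CPM. The glucocorticoid receptor gene NR3C1 lay at 98.4, 89.2 and 84.4 CPM, so a steroid receptor other than those of sex hormones was present. The vitamin D receptor VDR lay at 74.8, 54.8 and 66.5 CPM. Retinoid receptors were expressed in all RAR genes, with RARG at 62.7% ± 1.36 of their summed level per kilobase, RARA at 35.9% ± 1.08 and RARB at 1.40% ± 0.286, which became 2.67% with the union of exons. NR4A3, an immediate-early receptor gene, was uneven at 10.1, 1.08 and 1.72 CPM, high in replicate 1 alone. Its relatives NR4A1 (21.3, 10.2 and 9.87 CPM) and NR4A2 (13.8, 8.25 and 9.22 CPM) were also highest there.

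Surface molecules used as drug targets or stem-cell marks were mostly present, 24 of 30 (80%, against 60.1% of all protein-coding genes). CD44, the hyaluronan receptor, lay at 1986, 1596 and 1589 CPM and CD24, a small anchored glycoprotein, at 1994, 2079 and 2017 CPM. Both genes of this pair, whose ratio is often used to sort breast cancer cells, ranked in the top 25 per kilobase by median length. VTCN1, the gene of B7-H4, an immune checkpoint ligand, lay at 160.3, 161 and 164 CPM. PROM1, the gene of CD133, lay at 269, 244 and 234 CPM. Each differed by less than 1.5-fold between libraries. CD274, the gene of PD-L1, was low at 0.421, 0.258 and 0.643 CPM, and PDCD1LG2, CEACAM5 and MUC16 had no count.

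Most tumour suppressors were expressed, 67 of 72 (93.1%, against 60.1% of all protein-coding genes). The exceptions were RB1, LRP1B, SMAD4, DCC and CSMD1. RB1, which restrains entry into S phase, lay on chromosome 13 at 48303726–48599436, plus strand (GENCODE 29, GRCh38), and held 7, 10 and 22 counts, or 0.421, 0.516 and 1.18 CPM. SMAD4, the shared SMAD of transforming growth factor beta signalling, lay on chromosome 18 at 51028394–51085045, plus strand, and held 1, 0 and 0 counts. SMAD4 was thus at the floor of 3 counts and RB1 was low, above that floor in every library and over 1 CPM in replicate 3. The other pocket protein genes were present: RBL2 lay at 69.5, 65.6 and 69.7 CPM and RBL1 at 22.01, 20.2 and 23.2 CPM. Per kilobase RB1 made up 0.652% ± 0.363 of the summed level of the pocket proteins, and under 1% with each of the other lengths. SMAD2 (113, 96.99 and 97.6 CPM) and SMAD3 (81.9, 57.3 and 62.6 CPM), the receptor SMADs that pair with SMAD4, were expressed, as were the receptors TGFBR1 (191, 135 and 130.4 CPM) and TGFBR2 (55.4, 33.8 and 34.7 CPM). Gene copy number was not measured here.

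The low levels extended to some neighbours of both genes and stopped at others. Beside RB1, LPAR6, a lysophospholipid receptor gene inside the RB1 span on the other strand, lay at 0.1203, 0 and 0 CPM, RCBTB2 at 0.481, 0.413 and 0.751 CPM, and CYSLTR2 had no count. On the side before RB1, ITM2B lay at 97.7, 106 and 104 CPM and MED4, a Mediator subunit gene, at 13.4, 13.9 and 14.8 CPM. On the far side FNDC3A lay at 40.2, 32.4 and 33.2 CPM. The stretch of low or silent protein-coding genes therefore ran from RB1 at 48303726 to CYSLTR2 ending at 48711226, with expressed genes on both sides. Of all protein-coding genes 10.8% were low and 29.1% silent, so such a neighbour is common in itself. Beside SMAD4, ELAC1, a tRNA-processing gene, lay at 0, 0.310 and 0.107 CPM, and the overlapping gene AC091551.1 at 0.241, 0 and 0 CPM. ME2, the mitochondrial malic enzyme gene, lay at 62.5, 53.6 and 49.5 CPM and MEX3C, an RNA-binding ubiquitin ligase gene, at 77.2, 61.9 and 61.3 CPM. Expressed genes thus stood on both sides of SMAD4 within 5 neighbours, with MRO low and DCC silent among them, and ELAC1, SMAD4 and AC091551.1 rested on at most 6 counts in any library. AC091551.1 overlaps both ELAC1 and SMAD4 on the same strand, so the few counts cannot be assigned with certainty.

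Other suppressor genes stood differently. CDKN2A, which encodes p16 and p14ARF, lay at 103, 133 and 126 CPM, and its neighbours CDKN2B (67.9, 69.3 and 75.8 CPM) and MTAP (75.3, 56.5 and 59.4 CPM) were expressed too. This locus, often lost in tumours, was thus transcribed in all 3 libraries. BRCA1 lay at 45.1, 30.1 and 35.2 CPM and BRCA2 at 29.3, 19.9 and 20.2 CPM, both highest in replicate 1. FHIT, at a fragile site, was among 2 expressed suppressors with a mean under 10 CPM, at 2.83, 2.84 and 2.73 CPM, and TP63 was the other.

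**Figure D2:**
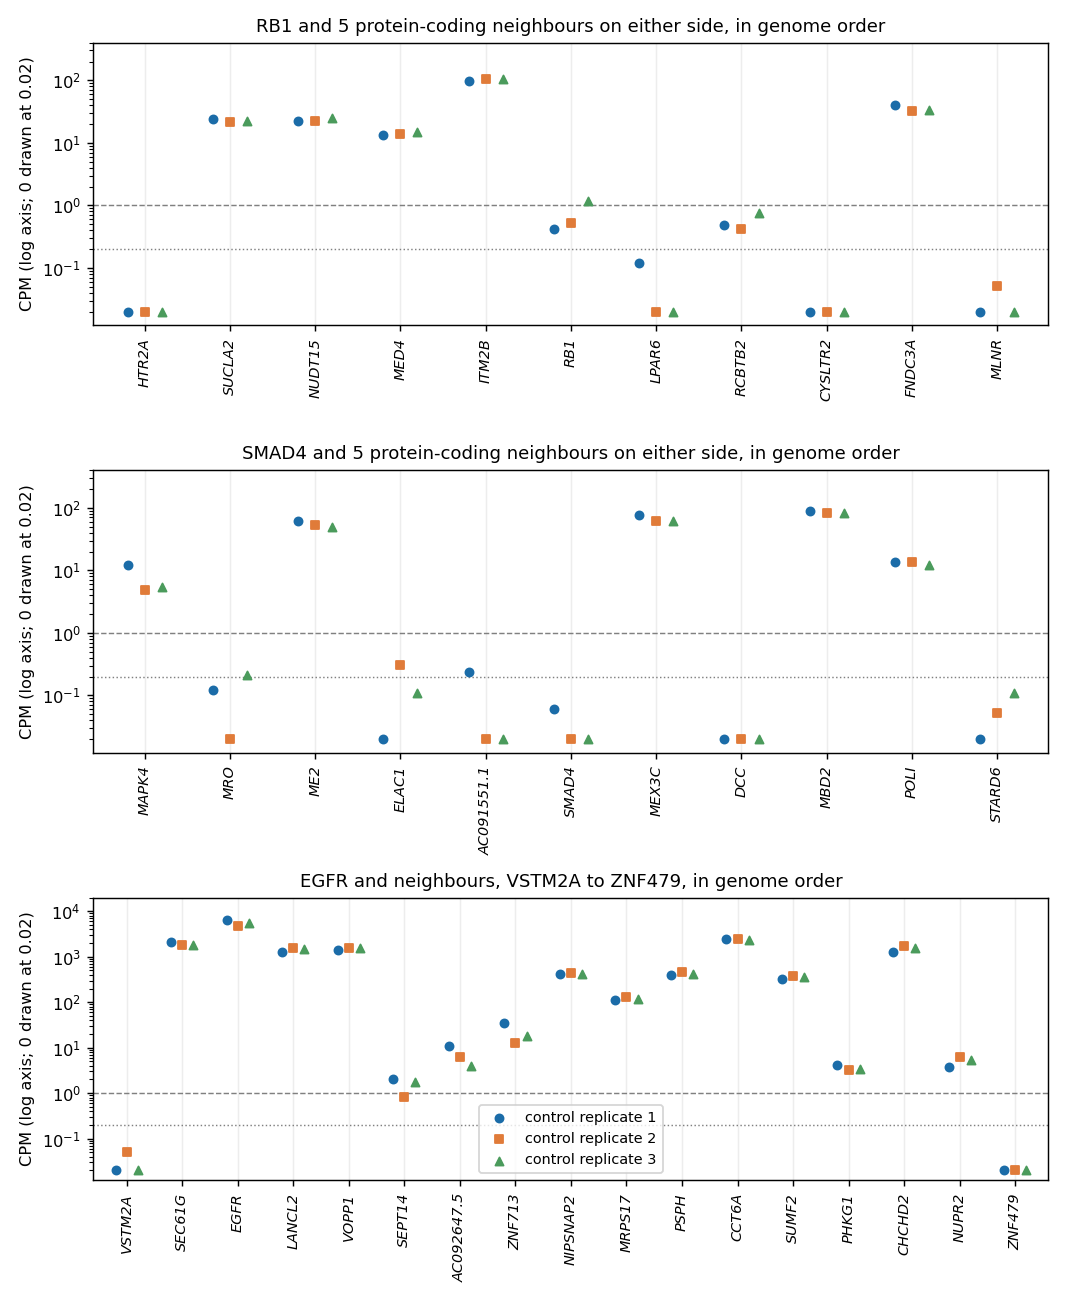
CPM (log axis, zeros at 0.02) of RB1, SMAD4 and EGFR with their protein-coding neighbours in genome order, 1 point per control library; dashed and dotted lines mark 1 and 0.2 CPM. RB1 and SMAD4 sit in short stretches of genes near 0 between expressed genes, whereas SEC61G, EGFR, LANCL2 and VOPP1 each exceed 1000 CPM in every library.

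The EGFR neighbourhood on chromosome 7 was unusual for the height of its genes. SEC61G, a subunit of the translocation channel of the endoplasmic reticulum, lay at 2107, 1819.6 and 1795 CPM. LANCL2, a lanthionine synthetase homologue, lay at 1294, 1532 and 1514 CPM and VOPP1, a vesicular membrane protein gene, at 1411, 1595 and 1534 CPM. With EGFR these are 4 consecutive protein-coding genes. The geometric mean of their levels per kilobase was the highest of 19785 runs of 4 neighbouring genes under each of the 3 lengths. Mitochondrial genes were left out of this ranking. The levels stayed high beyond them. CCT6A, a chaperonin subunit gene, lay at 2463, 2415 and 2350.5 CPM, CHCHD2, a mitochondrial protein gene, at 1300.5, 1706 and 1567 CPM, and PSPH, the last enzyme of serine synthesis, at 388, 451 and 424 CPM. From SEC61G to NUPR2 (54752250–56116400) 14 of 15 protein-coding genes were expressed, 10 had a mean over 100 CPM and 6 a mean over 1000 CPM. Between 9 and 10 of them, by the length used, were in the highest 5% of protein-coding genes per kilobase. This run took 1.64%, 1.53% and 1.56% of all counts. The genes outside it, VSTM2A and ZNF479, held at most 1 count in any library. Both the run of 4 genes and the longer run with its ends were chosen after the values were seen. Within the longer run SEPT14, AC092647.5, PHKG1 and NUPR2 had means under 10 CPM.

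Cell-cycle and oncogene lists were nearly complete, with 42 of 45 expressed (93.3%, against 60.1% of all protein-coding genes). MYC lay at 125, 122 and 131 CPM and made up 96.97% ± 1.10 of the level per kilobase of the MYC family. CCND1, the D-type cyclin upstream of RB1, lay at 198, 149 and 174 CPM and CCND3 at 67.7, 80.7 and 75.2 CPM, while CCND2 had no count. CDK4 (137, 166 and 151 CPM) outweighed CDK6 (51.4, 34.1 and 40.9 CPM), at 96.8% ± 0.946 of their summed level per kilobase. The E-type cyclins and the E2F factors were expressed: CCNE1 lay at 48.95, 40.6 and 49.4 CPM, CCNE2 at 63.6, 63.03 and 63.3 CPM and E2F1 at 86.1, 90.7 and 81.99 CPM. Of the RAS genes, NRAS led with a share of 49.5% ± 1.12 per kilobase, 64.9% and 72.6% with the other lengths, and lay at 381, 362 and 359 CPM. MKI67, the proliferation antigen Ki-67, was uneven at 227, 108 and 164 CPM, whereas the replication clamp gene PCNA was even at 595, 692 and 646 CPM. TERT, the telomerase reverse transcriptase gene, lay at 0, 0.0516 and 0.429 CPM, below the limit for an expressed gene.

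In carbon metabolism a small set of isozymes held most of the RNA. Of 48 genes of the glycolysis list 30 were expressed, 11 silent and 7 low, a share close to the 60.1% of all protein-coding genes. The list includes isozymes of liver, muscle, brain and testis. SLC2A1, the glucose transporter GLUT1, lay at 206, 221 and 223 CPM and took 99.8% ± 0.0205 of the summed level of SLC2A1 to SLC2A4 per kilobase. HK1, the constitutive hexokinase, lay at 159, 159.8 and 159 CPM and took 82.04% ± 3.06 of its family. HK2, the inducible form, lay at 70.2, 47.8 and 49.3 CPM and was highest in replicate 1. PKM lay at 1165, 1382 and 1287 CPM and its liver relative PKLR was silent. LDHA took 92.7% ± 0.0732 of the lactate dehydrogenases, at 813, 907 and 865 CPM, and LDHB 7.26% ± 0.0869. ENO1 took 99.8% ± 0.0380 of the enolases, and ALDOA nearly all of the aldolases, although 53.6% of its 31-base words recur in another gene. These dominant members kept their place with every length, unlike the phosphofructokinases. PFKP led PFKL with the median length (59.7% ± 1.31 against 36.5% ± 1.47) and trailed it with the longest transcript (43.4% against 54.5%). For lactate export SLC16A1 (87.02, 78.7 and 72.3 CPM) was ahead of SLC16A3 (4.45, 8.10 and 5.52 CPM) with 84.4% ± 4.39 per kilobase.

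**Figure D3:**
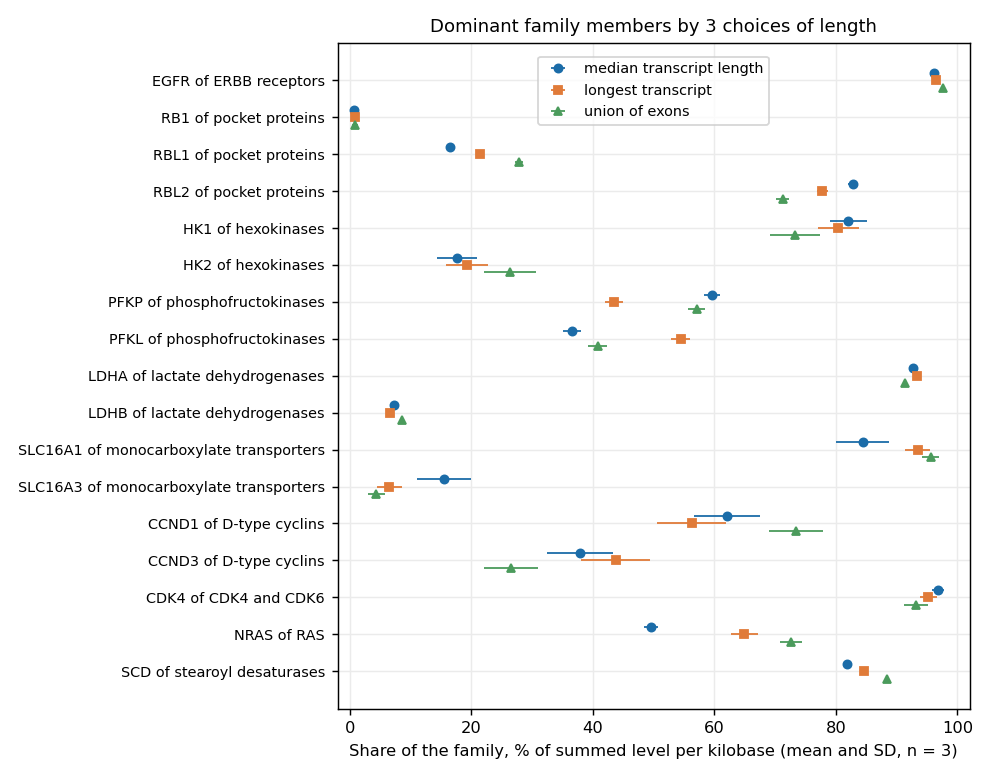
Share of each named gene in the summed level per kilobase of its family, in percent, as the mean of 3 control libraries with SD bars, for 3 choices of gene length. EGFR, LDHA and CDK4 dominate with every length, while PFKP and PFKL change places with the longest transcript.

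The tricarboxylic acid cycle was expressed in 27 of 28 genes (96.4%, against 60.1% of all protein-coding genes). The exception was the testis isozyme PDHA2. CS, citrate synthase, lay at 209, 195 and 204 CPM, IDH1 at 313, 311 and 311 CPM, SDHA at 280.4, 289 and 292 CPM and FH, fumarase, at 156, 176 and 182 CPM. The median member differed between libraries by 1.13-fold, less than the 1.21-fold of all expressed protein-coding genes. The median level of the list was 122 CPM and spread fell with level, so the 2 folds are not at a like level. FBP1 and PCK1, enzymes of gluconeogenesis, lay at 1.20, 1.24 and 1.55 CPM and 0.0601, 0 and 0 CPM, while the mitochondrial PCK2 lay at 121, 150.2 and 137 CPM.

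Serine synthesis was strongly transcribed. PHGDH, which commits glycolytic carbon to serine, lay at 1097, 1372 and 1266 CPM, PSAT1, the transaminase of the pathway, at 485, 539.9 and 524 CPM, and PSPH, given above, completes it. All 3 steps were thus over 300 CPM in each library. The one-carbon enzymes of the mitochondrion followed, with SHMT2 at 474, 559.6 and 536 CPM and MTHFD2 at 347, 321 and 300.1 CPM. The glycine cleavage gene GLDC was low at 0.180, 0.0516 and 0.214 CPM. In this list of serine and one-carbon genes, 25 of 31 were expressed (80.6%, against 60.1% of all protein-coding genes). MAT2A, the methionine adenosyltransferase of non-liver cells, took 98.4% ± 0.376 of MAT1A and MAT2A, and MTAP, of methionine salvage, was present.

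Among 37 genes of glutamine and amino acid handling, 31 were expressed (83.8%, against 60.1% of all protein-coding genes). The transporters SLC7A5 (584, 620.3 and 611 CPM) and SLC1A5 (539, 629.8 and 573 CPM) bring in large neutral amino acids and glutamine. SLC7A11, the cystine carrier, lay at 44.2, 31.8 and 30.2 CPM, highest in replicate 1. ASS1, argininosuccinate synthase, lay at 494, 632 and 587 CPM and ASNS, asparagine synthetase, at 254, 277 and 256 CPM, so both synthetic genes were transcribed. The branched-chain transaminase BCAT1 and the tryptophan oxygenase IDO1 had no count, while BCAT2 (13.8, 20.2 and 17.5 CPM), KYNU (165, 163 and 152 CPM) and TDO2 (11.1, 9.80 and 10.1 CPM) were expressed.

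Lipid and sterol synthesis genes were expressed in 33 of 40 cases (82.5%, against 60.1% of all protein-coding genes). FASN, fatty acid synthase, lay at 960.0, 961 and 987 CPM, SCD, the stearoyl desaturase, at 1759, 1771 and 1768 CPM, and ACLY, which supplies cytosolic acetyl-CoA, at 742, 742 and 722 CPM. SCD varied between libraries by 1.01-fold. FDPS, of the mevalonate pathway, lay at 1548, 1844 and 1729.6 CPM and DHCR7, of the last steps to cholesterol, at 939, 1146 and 1048 CPM. Their regulator SREBF2 lay at 496, 479.8 and 482 CPM. HMGCS1, which responds to sterol shortage, lay at 467, 331 and 333 CPM and was highest in replicate 1. FABP5, a fatty acid carrier of epithelial cells, was listed at 0 in all 3 libraries, as was every FABP5 pseudogene of the table. An exact 0 among estimated counts can be a failed estimate, so FABP5 is not read as silent although it is outside the 33, and other exact zeros carry the same limit. LPL and FABP4 were at 0 too.

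Positional identity genes were selective. Of 39 HOX genes 15 were expressed (38.5%, against 60.1% of all protein-coding genes). They were 6 of 11 in cluster A, 3 of 10 in B, 6 of 9 in C and 0 of 9 in D, where every gene was at 0 in all libraries. HOXC10, a gene of the posterior part of its cluster, lay at 37.8, 36.6 and 36.6 CPM, with HOXC13 at 26.9, 15.6 and 15.01 CPM and HOXC12 at 17.6, 16.4 and 16.1 CPM. Cluster C held 68.0% ± 0.861 of the summed HOX level per kilobase (SD, n = 3). HOXC8, in the middle of that cluster, was silent, and HOXB7, at 8.42, 10.4 and 9.38 CPM, took 62.8% ± 4.41 of cluster B per kilobase.

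Cancer-testis genes, which are normally confined to germ cells, were mostly silent, 32 of 49, against 29.1% of all protein-coding genes. Expressed were 12 (24.5%, against 60.1% of all protein-coding genes). MAGEA3 lay at 257, 305 and 283 CPM, MAGEA6 at 168, 186 and 176 CPM, MAGEA12 at 119, 142 and 129.8 CPM and MAGEA2 at 126, 144 and 120.4 CPM. These 4 genes lie together on chromosome X and share sequence, with 71.6%, 69.7% and 97.8% of the 31-base words of MAGEA3, MAGEA6 and MAGEA2 found in another gene, so the division of counts among them is uncertain. MAGEA4, MAGEA1 and MAGEC1 were low or silent, and PRAME had no count. CT83 lay at 12.4, 16.1 and 13.2 CPM and XAGE2 at 41.98, 41.7 and 38.4 CPM. The kinase genes TTK and PBK of this list are cell-cycle genes of dividing cells in general, at 108, 105 and 111 CPM and 38.5, 42.7 and 49.4 CPM.

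Abundant RNA came from housekeeping and cytoskeletal genes together with products of the epithelial state. Leaving out ribosomal protein and mitochondrial genes, the 25 highest protein-coding genes per kilobase included ACTB, EEF1A1, GAPDH, FTH1, TUBA1B, PPIA, ACTG1, TMSB4X, TMSB10 and PTMA. KRT5 and SEC61G were in the same set under all 3 lengths. FASN, CD44, CD24, VOPP1 and MYH9 were in it with the median length but not with every length. FTH1, the ferritin heavy chain gene, has many pseudogenes and shares 62.96% of its 31-base words with them or other genes. In all, 12 genes belonged to the set under all 3 lengths and 14 were shared with each of the other lengths. ACTB had the highest level with the median length, 13554 ± 1202 on the per-kilobase scale (SD, n = 3), and KRT5 lay at 7060.0 ± 298. The 100 most abundant genes took 18.1%, 19.0% and 18.7% of the counts, and mitochondrial genes 1.67%, 1.33% and 1.54%.

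The sequence before the start of expressed genes differed in composition from that of silent genes. In the 250 bases before the RefSeq start, a ratio of observed to expected CpG of at least 0.6 was found for 81.9% of 9519 matched expressed protein-coding genes (95% Wilson interval 81.1 to 82.7) and for 27.5% of 3964 matched silent genes (26.2 to 28.9). Low genes lay between, at 47.6%. TATAAA within the last 50 bases before the start was rarer, at 1.57% of expressed and 8.48% of silent genes. Genes are not independent of each other, so the intervals are a description. By reference sequence and RNA level, exceptions stood on both sides. The pair below shows them with every CG in capitals (RefSeq, GRCh38.p14, 5′ to 3′ on the gene's strand). KRT5, an abundant gene with a CpG ratio of 0.309, is from chr12:52520395-52520644 (minus strand), and SMAD4, a silent gene with a ratio of 0.857, is from chr18:51029963-51030212 (plus strand).
KRT5: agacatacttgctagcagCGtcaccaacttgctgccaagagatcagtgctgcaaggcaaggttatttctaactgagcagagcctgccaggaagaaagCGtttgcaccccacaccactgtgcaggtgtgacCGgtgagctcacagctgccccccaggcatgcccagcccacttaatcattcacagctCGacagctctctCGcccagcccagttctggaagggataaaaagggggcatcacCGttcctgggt
SMAD4: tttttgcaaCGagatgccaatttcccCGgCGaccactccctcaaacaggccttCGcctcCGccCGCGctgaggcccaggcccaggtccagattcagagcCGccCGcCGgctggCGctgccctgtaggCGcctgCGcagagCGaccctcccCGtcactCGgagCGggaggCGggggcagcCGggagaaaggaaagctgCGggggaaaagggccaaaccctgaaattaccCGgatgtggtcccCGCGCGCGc
The KRT5 window holds 6 CG pairs and the SMAD4 window 25, so the reference start of SMAD4 is CpG-rich like that of most expressed genes. Gene copy number was not measured, and whether these cells hold the SMAD4 sequence was not tested. The low RNA of SMAD4 therefore cannot be set against its promoter composition alone. Some GENCODE transcripts start elsewhere than the RefSeq start used for these windows.

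The 3 libraries were close to each other for most genes, with a small group that differed many-fold. Among 11938 expressed protein-coding genes, the median fold of the highest over the lowest library was 1.21. It was under 1.5 in 87.1% and under 2 in 97.3%, which left 319 genes of 2-fold or more. Replicates 2 and 3 were the nearest pair: Pearson's r of log2 CPM across these genes was 0.994 between them, 0.985 between 1 and 3 and 0.983 between 1 and 2, where genes are not independent points. The biological coefficient of variation, the spread of a gene between libraries beyond counting noise, was 13.2% by edgeR, and without replicate 1 it was 6.70%. Trended values fell with level, from 20.1% at 1 to 10 CPM to 12.7% at 10 to 100 and 10.7% over 100. Chi-square per gene was 25.8, 17.5 and 5.94 for the pairs 1 and 2, 1 and 3, and 2 and 3, and a value near 1 would mean that 2 libraries agreed within counting noise, which no pair did.

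Replicate 1 differed most, and its deviation moved with transcript length. It was the highest library in 195 of the 319 genes of 2-fold spread or more. In 5 equal groups of genes by longest transcript, from short to long, the median log2 CPM of replicate 1 minus the mean of the others was -0.18, -0.07, 0.03, 0.11 and 0.24. By median transcript the same values were -0.06, -0.08, -0.01, 0.07 and 0.21, with no steady rise over the shorter groups. By longest transcript, replicate 2 ran the other way, from 0.14 to -0.19, and replicate 3 from 0.03 to -0.05. Long genes such as GOLGB1 (79.8, 26.4 and 41.3 CPM), GOLGA4 (56.5, 19.1 and 26.1 CPM) and SYNE2 (97.8, 34.8 and 57.2 CPM), which encode large Golgi and nuclear envelope proteins, were among the 20 with the widest spread, each highest in replicate 1 and lowest in replicate 2. The lists leaned either way: 17 of 30 expressed glycolysis genes were lowest in replicate 1, against 4641 of 11938 genes in all, whereas 43 of 67 tumour suppressors were highest there, against 5363 of 11938. The part of RNA quality or library preparation in this pattern was not tested.

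**Figure D4:**
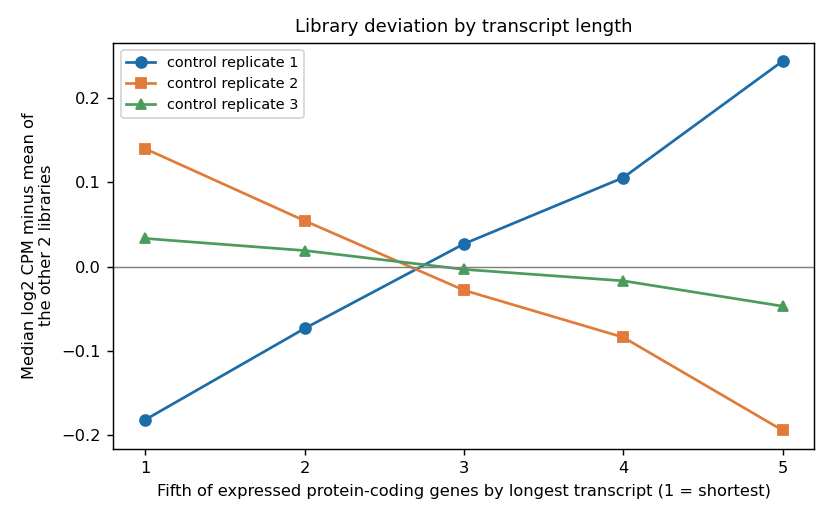
Median difference in log2 CPM between each control library and the mean of the other 2, for 5 equal groups of expressed protein-coding genes ordered by longest transcript (x axis, 1 = shortest). Replicate 1 rises from -0.18 to 0.24, replicate 2 falls from 0.14 to -0.19 and replicate 3 stays between 0.03 and -0.05.

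Genes of zinc and metal handling were 4 of the 5 with the widest spread. Metallothioneins are small cysteine-rich proteins that bind zinc and copper, and the zinc-sensing factor MTF1 raises them and the zinc exporter gene SLC30A1 through short metal response elements. MT1X (chromosome 16 at 56682424–56684196, plus strand) lay at 14.6, 129 and 344 CPM, a 23.7-fold range. MT2A (chromosome 16 at 56608199–56609497, plus strand) lay at 108, 315 and 679 CPM, and MT1F (chromosome 16 at 56657694–56660698, plus strand) at 13.8, 53.03 and 106 CPM. SLC30A1 (chromosome 1 at 211571568–211578742, minus strand) lay at 34.1, 104 and 229.9 CPM. All 4 were lowest in replicate 1 and highest in replicate 3, with ranges of 6.26-fold to 23.7-fold. MT1E held 0, 39 and 181 counts (0, 2.01 and 9.71 CPM), at least 53.8-fold higher in replicate 3 than the floor of 3 counts in replicate 1. SLC30A2, another zinc exporter gene, had the same order at 0.1203, 9.54 and 25.7 CPM. The other metallothionein genes were silent, at 0 in all libraries except MT1B with 3 counts in replicate 3.

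Other zinc transporter genes varied less. SLC39A10, a zinc importer gene, ran the opposite way at 66.5, 43.6 and 29.1 CPM. Of 18 expressed genes of the SLC30 and SLC39 transporter families, 14 differed by less than 1.5-fold between libraries, against 87.1% of all expressed protein-coding genes. SLC30A5 (74.8, 72.9 and 71.5 CPM) and SLC39A7 (256, 262 and 264 CPM) were among the 14. The expressed exceptions were SLC30A1, SLC39A10, SLC30A3, which was lowest in replicate 1 with a 3.15-fold range, and SLC39A4, with a 1.87-fold range. MTF1 itself lay at 87.2, 67.1 and 64.2 CPM. The part of transcript length or library preparation in this spread was not tested. MT1E, SLC30A2, SLC39A10 and the rest of the transporter families were examined after the values of the first 4 genes had been seen. Whether the medium or any other feature of the cultures differed is not given in the sources used here.

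**Figure D5:**
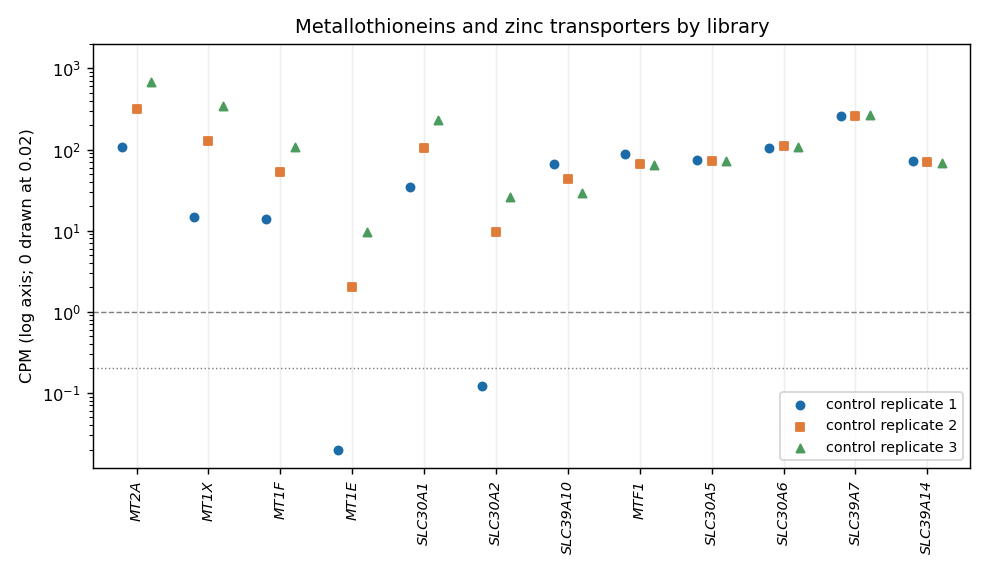
CPM (log axis, a zero drawn at 0.02) of metallothionein, zinc transporter and MTF1 genes in the 3 control libraries, 1 point per library, with the 1 and 0.2 CPM limits as dashed and dotted lines. MT2A, MT1X, MT1F, MT1E, SLC30A1 and SLC30A2 are lowest in replicate 1 and highest in replicate 3, SLC39A10 is the reverse, and SLC30A5, SLC30A6, SLC39A7 and SLC39A14 lie level.

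The starts of 4 of these variable genes are shown with the core of the metal response element, and those of MT1F and MT1E were not analysed here. The cores TGCACNC and TGCGCNC were searched on both strands of the 250 bases before the RefSeq start, overlaps allowed, and are printed in capitals, in their reverse complement where they lie on the other strand (GRCh38.p14, 5′ to 3′ on the gene's strand). MT1X is from chr16:56682220-56682469 (plus), MT2A from chr16:56608334-56608583 (plus), SLC30A1 from chr1:211579162-211579411 (minus) and SLC30A2 from chr1:26046119-26046368 (minus).
MT1X: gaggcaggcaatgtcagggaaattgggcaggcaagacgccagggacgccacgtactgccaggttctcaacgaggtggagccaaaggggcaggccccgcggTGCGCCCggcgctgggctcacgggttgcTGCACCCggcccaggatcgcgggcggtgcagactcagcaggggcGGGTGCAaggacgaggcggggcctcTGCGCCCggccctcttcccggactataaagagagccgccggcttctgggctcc
MT2A: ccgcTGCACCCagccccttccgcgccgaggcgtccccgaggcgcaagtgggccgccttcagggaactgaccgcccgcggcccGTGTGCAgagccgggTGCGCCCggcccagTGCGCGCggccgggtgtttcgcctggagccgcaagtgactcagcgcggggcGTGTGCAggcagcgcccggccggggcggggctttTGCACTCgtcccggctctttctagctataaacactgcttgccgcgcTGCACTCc
SLC30A1: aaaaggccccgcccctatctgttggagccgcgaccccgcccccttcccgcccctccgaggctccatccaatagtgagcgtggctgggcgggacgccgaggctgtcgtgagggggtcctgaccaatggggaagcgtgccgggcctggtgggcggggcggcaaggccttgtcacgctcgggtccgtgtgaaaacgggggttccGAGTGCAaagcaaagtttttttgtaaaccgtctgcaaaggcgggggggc
SLC30A2: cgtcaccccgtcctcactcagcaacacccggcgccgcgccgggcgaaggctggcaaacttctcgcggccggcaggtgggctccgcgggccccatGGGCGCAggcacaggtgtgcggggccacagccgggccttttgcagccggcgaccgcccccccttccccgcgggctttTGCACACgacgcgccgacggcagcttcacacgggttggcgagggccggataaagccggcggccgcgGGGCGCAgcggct
The windows of MT1X, MT2A, SLC30A1 and SLC30A2 hold 4, 7, 1 and 3 matches. Of 35116 RefSeq windows of the same length, 24.8% hold at least 1, 1.58% at least 3 and 0.370% at least 4. MT1H holds 8 matches and was at 0 in every library. A match is a run of letters and not a measured binding site. The RefSeq starts used here also differ from the GENCODE spans given above. The MT2A window lies within the span of MT2A, and the MT1X window runs past the start of its span. The SLC30A1 window lies upstream of its span without touching it.

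Among all 20 genes of widest spread with a mean of at least 10 CPM, replicate 1 was at an extreme in each, and the direction varied. Replicate 1 was the highest library in 11 of the 20. Replicate 3 was the highest in 9, and replicate 1 was the lowest in those 9. Many 31-base words of RGPD6 (34.98, 17.4 and 10.2 CPM) and NBPF10 (18.7, 5.50 and 8.76 CPM) recur in another gene. The same holds for NBPF20 (22.9, 5.51 and 9.28 CPM) and ZBED6 (24.2, 8.10 and 14.4 CPM). Such words can come from an overlapping gene as well as from a near copy, and which applies was not tested. RGPD5 ran the opposite way to RGPD6 at 2.42, 11.9 and 19.5 CPM. Since 93.98% of the 31-base words of RGPD5 and 100% of those of RGPD6 recur in another gene, their division is uncertain. FAM189A2 (3.79, 12.4 and 16.5 CPM), PGBD1 (4.63, 10.7 and 16.5 CPM), LRRN2 (4.75, 10.4 and 15.2 CPM) and TGM1, a transglutaminase of the cornified envelope (5.17, 12.5 and 14.9 CPM), had few such words. These 4 had the order of the metallothioneins, lowest in replicate 1 and highest in replicate 3.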

How the data were processed

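The deposited table of estimated counts per gene was used, and its values were made by the authors from reads of polyadenylated RNA. The submitters' processing notes name Salmon 0.12, DESeq2 1.22.2 and GRCh38.p12 without a role. The annotation and the use of strand are not given in the sources used here, so overlapping and antisense genes are uncertain. Fractional values made up 12.2% to 12.3% of each library's entries. All 56809 symbols matched GENCODE 29, and 219 stand for several gene IDs. CPM used plain column totals and no filter. Near copies were measured as the share of a gene's 31-base words found in transcripts of other genes, which overlapping genes can also raise. Spread was estimated with edgeR 4.0.16 on rounded counts of genes with at least 10 counts in each library (TMM scaling), after a check on simulated data. Python 3.11.15 and R 4.3.3 were used.

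Libraries were grouped by plasmid label. With 1 group no test between groups was made. The members and lists were chosen with earlier results of these data known. Genes named are members of the 21 lists, neighbours of 13 loci, keratins, the 25 highest coding genes per kilobase, the 20 with the widest spread at a mean of 10 CPM or more, and the 20 highest non-coding genes. Genes outside this rule are MT1E and the other metallothioneins of narrower spread or at 0, the further zinc transporters, MTF1 and the chromosome 7 run, chosen after their values were seen. Alternatives were other limits, TMM and median-of-ratios scaling (DESeq2 1.42.0), levels per kilobase, 2 other lengths, no count minimum and leaving out each library. RefSeq promoter sequences matched 14884 protein-coding genes.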

Additional observations from a re-analysis of the deposited data

How the results depend on the processing

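Of 110 planned values recomputed under another limit, scaling or length, 100 stayed within 1.5 times the reported count or within its interval or spread, and 10 moved. At a limit of 0.5 CPM, 4 immune, 7 endothelial and 2 adipocyte or erythroid genes were expressed in place of 2, 3 and 0. At 2 CPM, 2 fibroblast and pericyte genes were, in place of 4. With levels per kilobase, 1 adipocyte or erythroid gene was. The 25 highest genes per kilobase shared 14 with the set by the longest transcript and 14 with that by the union of exons. Without mitochondrial genes the 100 most abundant genes took 18.1% in place of 18.6%. At limits of 2 and 0.5 CPM, 82.8% of expressed and 29.2% of silent genes had a CpG ratio of at least 0.6. Leaving out each library in turn, the coefficient of variation ranged from 6.70% (without replicate 1) to 16.4% (without replicate 3), and the adipocyte or erythroid count from 0 to 1 (without replicate 3), while 76 of 78 such values stayed within 1.5 times. Family shares, added after seeing the data, move with the gene length, and those printed without another length are by the median transcript. Genes under 0.2 CPM rest on under 4 counts a library. No paired analysis was possible because only 1 group was used.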

Other observations

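Long non-coding RNA genes were expressed in 651 of 15986 cases and pseudogenes in 239 of 15124. Among the 20 non-coding genes with the highest mean CPM, a rank that takes no account of length, LRRC75A-AS1 lay at 326, 407 and 383 CPM and GAS5, a host of small nucleolar RNAs, at 167, 199 and 179 CPM. ZFAS1 (143, 168 and 151 CPM) and SNHG1 (82.99, 82.8 and 87.03 CPM) are hosts of the same kind, and all 4 differed by less than 1.3-fold between libraries. NORAD, which binds Pumilio proteins, lay at 224, 137 and 146 CPM, highest in replicate 1, although 56.4% of its 31-base words recur in another gene. TUG1 lay at 176, 127 and 129 CPM and LINC00665 at 128, 143 and 138 CPM. The entry with the most counts, FP671120.3 (chromosome 21 at 8210384–8211306, minus strand), lay at 5944, 3341 and 4221 CPM. It overlaps the small-subunit ribosomal RNA gene RNA18SN2 of RefSeq, and all its 31-base words occur in another gene. In 9 of the 20, at least 50% of these words recur elsewhere, so the level of the single gene is uncertain.

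Protein-coding genes of most chromosomes were expressed at a like share. It was 46.6% of 832 genes on chromosome X, 52.8% of 229 on chromosome 21 and 67.1% of 441 on chromosome 22, against 60.1% in all. All 13 mitochondrial protein-coding genes were expressed.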
